A study of Mus musculus with 9 samples.

Results

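Potassium channels of the heart muscle cell were followed through 9 genes, taken by symbol from the 15779 genes of the deposited tables: Kcnd2, Kcnd3 and Kcnip2 of the transient outward channel, Kcna5, Kcnh2 and Kcnq1 of the delayed rectifiers, and Kcnj2, Kcnk3 and Kcnj11 of the inward rectifier, background and ATP-sensitive channels. All 9 had a value in every library and passed the filter on low values in every comparison. PolyA RNA of adult C57BL/6J mouse hearts was sequenced in 3 groups of 3 libraries. Saline was given to wild-type mice and to mice homozygous for the Mybpc3 stop codon (genotype Mybpc3R946X/R946X), and the third group, of that same mutant genotype, was given the treatment labelled high-dose-exABE8e. The series' design text names an AAV9-carried adenine base editor, SpRY-ABE8e, made to be expressed in cardiomyocytes; it does not say that this is the exABE8e of the labels. The labels say that the dose was high but give no amount, age or sex, the mutant mice are the study's own model of hypertrophic cardiomyopathy, and no wild-type mice given the editor are among the groups.

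Potassium leaving the cell through these channels ends the cardiac action potential and holds the resting membrane potential. The adult mouse ventricle repolarizes early and fast, mainly through transient outward and ultrarapid delayed rectifier currents, while the human ventricle relies more on the delayed rectifiers encoded by KCNH2 and KCNQ1. Pore-forming subunits are paired with accessory subunits that set their trafficking and gating, and loss of transient outward current is a well-known feature of hypertrophied and failing hearts.

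Each value below is the whole number that the authors deposited for a gene in a library. Library totals lay between 999152 and 999382, so each value is a share of a nearly fixed total, but no source names the unit and sequencing depth is unknown. Between 14151 and 14934 genes were above 0, and the mitochondrial share was 17.02% to 24.14%. Mybpc3, the gene that carries the mutation, averaged 1781 ± 265 (SD, n = 3) in wild-type, 154 ± 28.4 in saline mutant and 1243 ± 191 in treated mutant hearts. In each group 1 library had the X-inactivation transcript Xist, at 119 in wild type replicate 1, 351 in saline mutant replicate 3 and 39 in treated mutant replicate 1, and the other 6 libraries were at 0. Of those 3, treated mutant replicate 1 also had the Y-linked gene Ddx3y, at 38 against 70 to 97 in the 6 libraries without Xist, so that library had both kinds of transcript. Where a channel gene loses its call without these 3 libraries, the value without them is given beside it. Wild type replicate 1 and saline mutant replicate 3 had Ddx3y at 0, so neither came from the same animal as the other libraries of its group. Nothing says that the remaining replicates came from separate animals. The p-values therefore measure the spread between these libraries, part of which may be technical.

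In saline mutant hearts 5 of the 9 channel genes fell against wild type, and no channel gene among the 9 rose. Kcnd2, which encodes the pore of the fast transient outward channel, fell the furthest, to 18.1% ± 4.36 of its wild-type mean. Kcnip2, the accessory subunit that carries that pore protein to the membrane, fell to 52.2% ± 5.49. The inward rectifier gene Kcnj2 was at 60.7% ± 9.0, the background channel gene Kcnk3 at 63.3% ± 13.7 and the rapid delayed rectifier gene Kcnh2 at 71.2% ± 7.54 of wild type. Kcnd3, Kcna5, Kcnq1 and Kcnj11 had lower means that did not pass the test. The same 5 genes that fell were those whose saline mutant libraries all lay below the wild-type ones, as did 8.78% of all genes tested. Over all genes tested with limma, 7.7% of 13632 passed an adjusted p under 0.05 in this comparison, with 3.14% lower and 4.56% higher. Without the 3 libraries with Xist 2 of the 9 genes, Kcnd2 and Kcnip2, were called. The median difference over the 9 genes was -0.48 on the log2(value + 1) scale, against 0.07 over all genes tested. The 9 genes were chosen with earlier results of these data known. Their counts and medians, here and below, are therefore descriptions beside the values for all genes. In bulk tissue, fewer cells of a type and less RNA per cell cannot be told apart.

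**Figure D1:**
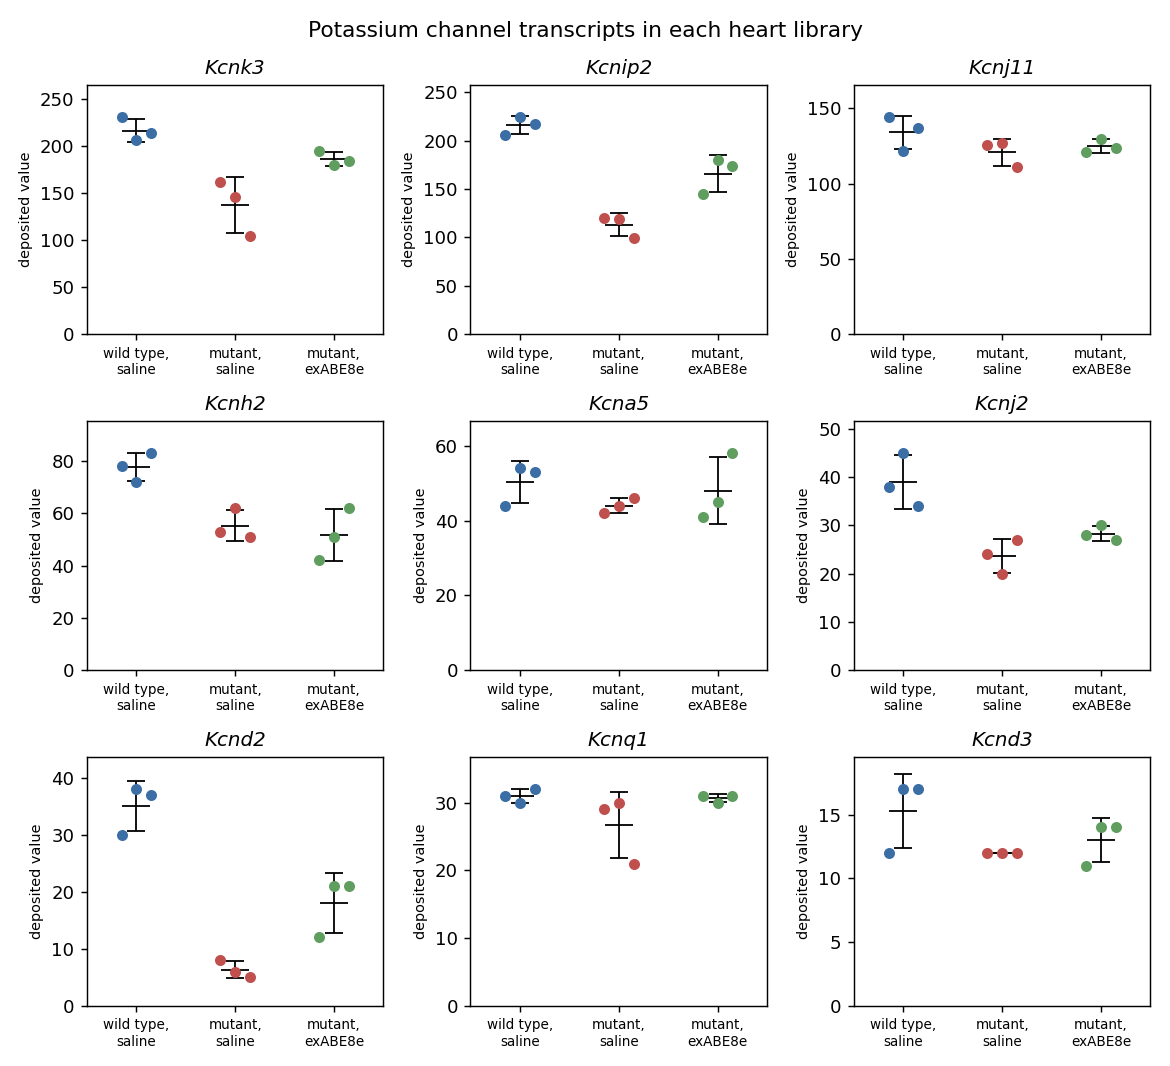
Deposited value (vertical axis, as a share of a nearly fixed library total, from 0) of the 9 potassium channel genes in every library. Points are libraries, the horizontal bar and whiskers are mean ± SD (n = 3) of wild type given saline, mutant given saline and mutant given exABE8e. The 3 groups of Kcnd2 (30 to 38, 5 to 8 and 12 to 21) and of Kcnip2 (206 to 224, 99 to 120 and 145 to 180) do not overlap. Those of Kcnk3 (206 to 230, 104 to 161 and 179 to 194) do not overlap either. The share of all genes with the 3 groups apart in this order was not counted.

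The bases ahead of the transcription start are shown for the 4 genes that fell and had an entry among the RefSeq upstream sequences (GRCm38.p6), because these genes moved in the same direction. Each run is the 250 bases before the RefSeq start, 5′ to 3′ in the gene's own direction. Kcnd2 is at chr6:21215096-21215345 (plus strand), Kcnip2 at chr19:45816064-45816313 (minus strand), Kcnj2 at chr11:111065914-111066163 (plus strand) and Kcnh2 at chr5:24329592-24329841 (minus strand). The Kcnh2 window ends at the start of a shorter transcript and lies inside the gene's longer annotated span. Capitals mark matches, on either strand, to the GC box GGGCGG, the CCAAT box CCAAT or the E-box CACGTG.
Kcnd2: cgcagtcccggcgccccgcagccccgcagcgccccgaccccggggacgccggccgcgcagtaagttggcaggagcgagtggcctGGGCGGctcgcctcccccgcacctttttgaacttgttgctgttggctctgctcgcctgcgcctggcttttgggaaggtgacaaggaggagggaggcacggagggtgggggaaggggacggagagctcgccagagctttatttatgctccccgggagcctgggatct
Kcnip2: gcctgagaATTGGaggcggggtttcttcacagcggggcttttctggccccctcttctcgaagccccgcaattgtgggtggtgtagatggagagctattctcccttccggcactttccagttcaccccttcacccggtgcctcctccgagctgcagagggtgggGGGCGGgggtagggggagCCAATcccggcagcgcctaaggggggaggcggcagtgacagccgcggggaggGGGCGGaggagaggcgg
Kcnj2: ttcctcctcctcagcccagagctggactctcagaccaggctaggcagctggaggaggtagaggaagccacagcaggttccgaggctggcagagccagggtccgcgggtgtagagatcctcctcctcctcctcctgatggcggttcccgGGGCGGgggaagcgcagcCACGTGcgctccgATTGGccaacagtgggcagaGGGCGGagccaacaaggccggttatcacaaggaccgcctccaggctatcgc
Kcnh2: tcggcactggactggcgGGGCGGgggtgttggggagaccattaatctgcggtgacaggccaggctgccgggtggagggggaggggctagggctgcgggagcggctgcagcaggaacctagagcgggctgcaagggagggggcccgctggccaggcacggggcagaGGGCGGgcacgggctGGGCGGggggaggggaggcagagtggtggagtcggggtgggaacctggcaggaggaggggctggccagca

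All 4 windows held the GC box GGGCGG, with 1 match in Kcnd2, 2 in Kcnip2, 2 in Kcnj2 and 3 in Kcnh2. Of the upstream windows of 27025 genes, 32.9% held at least 1 match. Kcnip2 had 2 matches to CCAAT, which 34.5% of windows held, and Kcnj2 had 1. The Kcnj2 window also held the E-box CACGTG, found in 6.05% of windows. Neither AGATAA, the letters of a GATA site (10.3% of windows), nor ACANNTGT, a pattern of Iroquois factors (6.29%), was in any of these windows. The G and C content was 68.8% in Kcnd2, 66.8% in Kcnip2, 65.6% in Kcnj2 and 73.6% in Kcnh2, against a median of 52.0% over all genes. Kcnd3 (62.8%) and Kcna5 (53.2%), whose windows were also searched, held none of the 5 motifs. Kcnk3, which also fell, had no upstream sequence to search. The motifs were chosen after the sequences were seen, so the contrast between these windows is a description and not a test. Matches of 6 letters are descriptions of these windows and not binding sites.

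Kcnd2 lies on chromosome 6 from 21215503 to 21729805 (GRCm38, plus strand). Its values were 30, 38 and 37 in wild type, 8, 6 and 5 in saline mutants, with 12, 21 and 21 after treatment. Every saline mutant library was below every treated one, and every treated one below every wild-type library. How many of all genes show this order of the 3 groups was not counted. The fall in saline mutants was -2.31 on the log2(value + 1) scale (SE 0.178, 95% interval -2.71 to -1.90, limma adjusted p 0.000218). It passed the threshold in all 18 alternative fits, with adjusted p from 2.55e-05 to 0.00506.

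Kcnip2 lies on chromosome 19 from 45791839 to 45816061 (minus strand). Its protein, a calcium-binding potassium channel interacting protein, joins the pore proteins made from Kcnd2 and Kcnd3. Values were 206, 224 and 217 in wild type, 120, 119 and 99 in saline mutants, with 145, 180 and 174 after treatment. The groups took the same order as those of Kcnd2 and did not overlap. Kcnip2 fell by 0.94 in saline mutants (SE 0.107, limma adjusted p 0.00139), and all 18 alternatives kept the call.

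Kcnd3 lies on chromosome 3 from 105452330 to 105674002 (plus strand) and encodes the other pore protein of the fast transient outward channel. It was at 12, 17 and 17 in wild type, 12, 12 and 12 in saline mutants, with 11, 14 and 14 after treatment, and all 3 groups overlapped. The difference between saline mutants and wild type was -0.31 (SE 0.159, 95% interval -0.68 to 0.05, limma adjusted p 0.327). At values this low, rounding to whole numbers limits what can be seen. An antisense transcript, Kcnd3os, shares 165 exonic bases with it, 1.72% of its exonic length, and since no source says that counting used strand, reads there could belong to either.

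Kcnd2 and Kcnd3, the alternative pores, thus stood in a different ratio in the 3 groups. Wild-type hearts had 2.30 ± 0.172 Kcnd2 units per unit of Kcnd3, saline mutants 0.528 ± 0.127 and treated mutants 1.36 ± 0.236. Kcnip2 per Kcnd2 went the other way, from 6.21 ± 0.57 in wild type to 18.2 ± 2.78 in saline mutants, with treated mutants at 9.65 ± 2.11. Neither ratio overlapped between any pair of groups. Kcnd2 is on opposite sides of these 2 ratios, so they are not independent of each other or of its fall given above. The ratios were chosen with earlier results of these data known. A ratio within a library does not depend on how that library was scaled, but it shows unequal change only, and its level says nothing of how many subunits meet in a channel. The two-sided exact permutation test of 3 libraries against 3 gave p = 0.1 for each of these 6 comparisons, the smallest that it can give, and 0.188 after adjustment over the 15 ratio comparisons made.

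**Figure D2:**
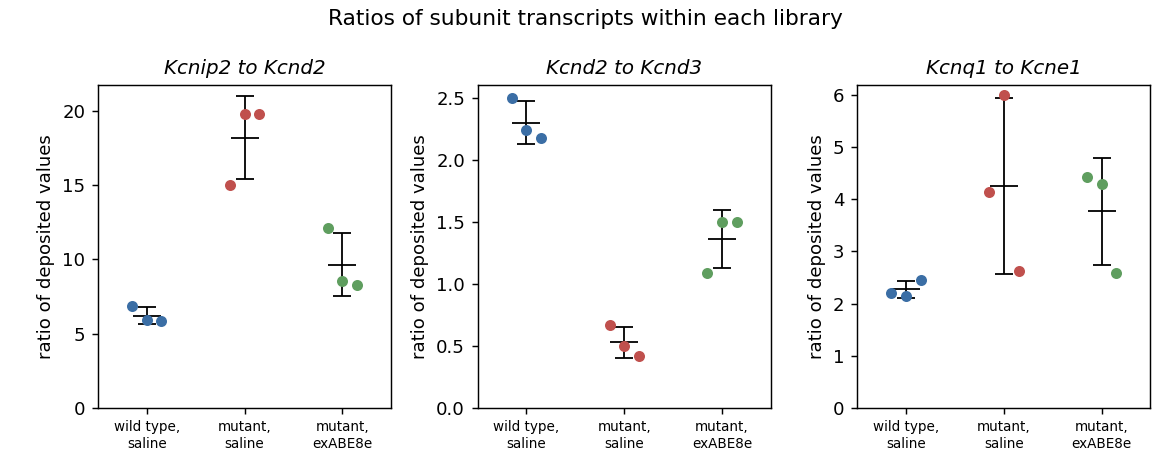
Ratio of deposited values within each library (vertical axis, from 0) for Kcnip2 to Kcnd2, Kcnd2 to Kcnd3 and Kcnq1 to Kcne1. Points are libraries and bars are mean ± SD (n = 3); the first and second ratios do not overlap between groups, and the saline mutant values of the third spread from 2.62 to 6.0.

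Kcnj2 encodes the main pore of the inward rectifier current that holds the resting potential. It lies on chromosome 11 from 111066164 to 111076821 (plus strand). Its values were 38, 45 and 34 in wild type, 24, 20 and 27 in saline mutants, with 28, 30 and 27 after treatment. Both mutant groups were below every wild-type library and overlapped each other. The fall in saline mutants was -0.70 (SE 0.151, limma adjusted p 0.0257). It passed in 13 of 18 alternatives, and its adjusted p was 0.0614 without the 3 libraries with Xist, 0.0901 without wild type replicate 1, 0.0788 without wild type replicate 2, 0.118 without saline mutant replicate 2 and 0.0687 without the rounding floor on the variance.

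Kcnk3 encodes an acid-sensitive background channel of the tandem-pore family. It lies on chromosome 5 from 30588170 to 30625271 (plus strand), where 229 exonic bases (5.76%) are shared with the opposite-strand transcript Gm9899. Wild-type values were 230, 206 and 213, saline mutant values 161, 146 and 104, and treated mutant values 194, 179 and 184. The groups took the same order as those of Kcnd2 and did not overlap. The lowest saline mutant value was in replicate 3, the library with Xist. Kcnk3 fell by 0.68 in saline mutants (SE 0.158, limma adjusted p 0.0347), and the call held in 12 of 18 alternatives. Without the 3 libraries with Xist the difference was -0.45 with an adjusted p of 0.0577. It was also lost without wild type replicate 1 (0.134), 2 (0.0605) or 3 (0.0934), without saline mutant replicate 2 (0.0844) and without the rounding floor (0.103).

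Kcnj2 per Kcnk3 was 0.181 ± 0.0325 in wild type, 0.182 ± 0.0676 in saline mutants and 0.153 ± 0.0128 in treated mutants. These ratios overlapped between all pairs of groups, with exact permutation p from 0.3 to 1.0.

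Kcnh2 encodes the pore of the rapid delayed rectifier. It lies on chromosome 5 from 24319589 to 24351604 (minus strand). Values were 78, 72 and 83 in wild type, 53, 62 and 51 in saline mutants, with 42, 51 and 62 after treatment. Neither mutant group reached the wild-type range, and they overlapped each other over most of theirs. The fall in saline mutants was -0.48 (SE 0.114, limma adjusted p 0.0369). This was the least stable of the 5 calls, kept in 7 of 18 alternatives with adjusted p from 0.019 to 0.159. It was lost when any 1 of the 6 libraries was left out (0.0567 to 0.152) and was at 0.159 without the 3 libraries with Xist.

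Kcna5, the pore of the ultrarapid delayed rectifier, lies on chromosome 6 from 126532551 to 126535412 (minus strand). It had values of 44, 54 and 53 in wild type, 42, 44 and 46 in saline mutants, with 41, 45 and 58 after treatment. The 3 groups overlapped, and saline mutants differed from wild type by -0.19 (95% interval -0.45 to 0.08, limma adjusted p 0.432). Kcnq1, the pore of the slow delayed rectifier, lies on chromosome 7 from 143106362 to 143427042 (plus strand) and shares 121 exonic bases (2.96%) with the antisense transcript Kcnq1ot1. It was at 31, 30 and 32 in wild type, 29, 30 and 21 in saline mutants, with 31, 30 and 31 after treatment. Only saline mutant replicate 3, the library with Xist, stood low, and the difference was -0.23 (95% interval -0.56 to 0.11, limma adjusted p 0.459). Kcnj11, the pore of the ATP-sensitive channel that opens when cell energy is low, lies on chromosome 7 from 46093953 to 46100764 (minus strand). It was at 144, 122 and 137 in wild type, 126, 127 and 111 in saline mutants, with 121, 130 and 124 after treatment. Its groups also overlapped (-0.14, 95% interval -0.39 to 0.10, limma adjusted p 0.516). The intervals of these 3 genes do not reach a fall as large as 1 on the log2 scale.

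Partner subunits gave different pictures for these last genes. Kcne1, the accessory subunit that slows the Kcnq1 channel, was at 14, 14 and 13 in wild type, 7, 5 and 8 in saline mutants, with 7, 7 and 12 after treatment. It fell by 0.96 in saline mutants (SE 0.175, limma adjusted p 0.0123), a call kept in 16 of 18 alternatives and lost without wild type replicate 1 (0.0657) or saline mutant replicate 2 (0.0504). Kcnq1 per Kcne1 was 2.27 ± 0.167 in wild type, 4.26 ± 1.69 in saline mutants and 3.77 ± 1.03 in treated mutants, each mutant group without overlap with wild type (exact permutation p = 0.1, adjusted over 15 comparisons 0.188). The saline and treated mutants overlapped in this ratio (exact permutation p = 1.0). Abcc9, the sulfonylurea receptor paired with the ATP-sensitive pore, was not called in any comparison, and Kcnj11 per Abcc9 was 0.373 ± 0.0948, 0.365 ± 0.0479 and 0.381 ± 0.0776 in the 3 groups (exact permutation p from 0.8 to 0.9).

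Treated against saline mutants, which share the genotype and differ in the labelled treatment, called none of the 9 genes in limma at an adjusted p under 0.05. The control was saline, so delivery and editing cannot be told apart. Of all 13636 genes tested, 0.0147% were called. At an unadjusted p under 0.05, Kcnd2, Kcnip2 and Kcnk3 were higher in treated hearts, where 3.53% of all genes were, and these 3 were also the ones whose groups did not overlap, as 5.48% of all genes did not in that direction. Kcnd2 averaged 18 ± 5.2 in treated hearts, 51.4% ± 14.8 of wild type, and the difference from saline mutants was 1.35 (SE 0.246, 95% interval 0.79 to 1.91, unadjusted p 0.000466, limma adjusted p 0.172). Its adjusted p ranged from 0.0662 to 0.706 over 18 alternatives. Kcnip2 averaged 166 ± 18.7, 77.1% ± 8.68 of wild type, with a difference of 0.56 (SE 0.127, 95% interval 0.27 to 0.85, limma adjusted p 0.257). Kcnk3 averaged 186 ± 7.64, 85.8% ± 3.53 of wild type, with a difference of 0.46 (SE 0.159, 95% interval 0.10 to 0.82, limma adjusted p 0.506).

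The lowest treated Kcnd2 value, 12, was in treated mutant replicate 1, the library with both Xist and Ddx3y, which had the lowest Mybpc3 (1024), Kcnip2 (145), Kcnh2 (42), Kcnd3 (11), Kcna5 (41) and Kcnj11 (121) values of its group and the highest Kcnk3 value (194). The part of that library in these results was tested only by leaving it out, and without it and the other 2 libraries with Xist none of the 9 genes was called either. The remaining 6 genes overlapped between the mutant groups. Their differences were 0.26 for Kcnj2, 0.21 for Kcnq1, 0.11 for Kcna5, 0.10 for Kcnd3, 0.04 for Kcnj11 and -0.11 for Kcnh2, with limma adjusted p from 0.674 to 0.942. Kcnh2 stood at 66.5% ± 12.9 of wild type in treated hearts against 71.2% ± 7.54 in saline mutants, and the 95% interval of that difference ran from -0.47 to 0.25. The median over the 9 genes was 0.21, against -0.02 over all genes.

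**Figure D3:**
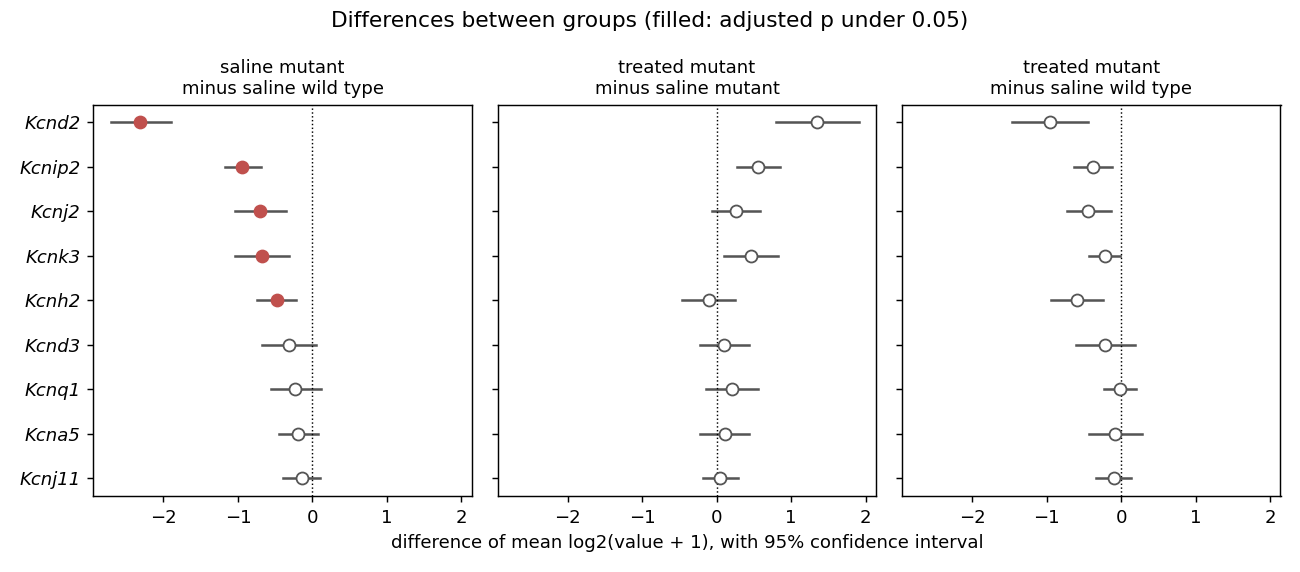
Difference of group means on the log2(value + 1) scale (horizontal axis) for the 9 potassium channel genes in the 3 comparisons. Points are estimates, lines are 95% confidence intervals and filled points have a limma adjusted p under 0.05; 5 genes are filled in saline mutant against wild type and none in the other 2 comparisons.

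Treated mutants against saline wild type called none of the 9 genes either, and 0.989% of 13554 genes were called (limma). All 9 estimates were below 0, with a median of -0.22 against 0.01 over all genes. At an unadjusted p under 0.05, 5 genes were lower, where 4.78% of all genes were, and the same 5 did not overlap with wild type, as 5.43% of all genes did not in that direction. These were Kcnd2 (-0.96, SE 0.220, adjusted p 0.126), Kcnh2 (-0.59, SE 0.150, adjusted p 0.157), Kcnj2 (-0.44, SE 0.127, adjusted p 0.208), Kcnip2 (-0.38, SE 0.110, adjusted p 0.211) and Kcnk3 (-0.22, SE 0.0904, adjusted p 0.380). They are the genes that fell in saline mutants, but both comparisons use the same wild-type libraries. Kcnd2 passed the threshold in 1 alternative, upper-quartile scaling, with an adjusted p of 0.0396. Kcnq1 was at 98.9% ± 1.86, Kcna5 at 95.4% ± 17.7, Kcnj11 at 93.1% ± 3.41 and Kcnd3 at 84.8% ± 11.3 of wild type, with limma adjusted p from 0.680 to 1.0.

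The authors' deposited tables give their own comparisons of the same values. In the authors' deposited table of saline mutant against wild type, the log2 fold change was -2.53 for Kcnd2, -1.0 for Kcnip2, -0.79 for Kcnj2, -0.72 for Kcnk3 and -0.56 for Kcnh2. The authors' deposited list of selected genes for that comparison held Kcnj2, Kcnd2, Kcnip2 and Kcnk3, 4 of the 9, where it held 4.42% of all genes. For treated against saline mutants, the authors' deposited list held Kcnd2 (1.53) and Kcnip2 (0.59), 2 of the 9 against 0.879% of all genes, and for treated mutants against wild type it held Kcnd2 (-0.98) and Kcnh2 (-0.61) against 2.06%. Membership of the authors' deposited lists needs a change of at least 1.5-fold beside an unadjusted p under 0.05, a rule that differs from the one used here in both respects.

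Of a list of 54 other potassium channel genes, 39 were in the tables, and 28, 29 and 31 passed the filter in the 3 comparisons. In saline mutants against wild type 4 of the 28 fell and 1 rose, where 3.14% of all genes were called lower and 4.56% higher, and the median difference was -0.08 against 0.07 over all genes. The largest fall was in Kcnj3, a pore of the acetylcholine-gated channel that slows the heartbeat, from 54, 48 and 51 to 10, 11 and 9 (-2.24, SE 0.122, limma adjusted p 5.98e-05). Kcnj5, its partner pore, fell from 74, 82 and 88 to 46, 50 and 44 (-0.79, SE 0.109, limma adjusted p 0.00319). Both are best known from atrial muscle, and both calls held in all 18 alternatives. Kcne1 is given above.

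Kcna2, a delayed rectifier pore of low abundance here, was at 5, 4 and 3 in wild type and 2, 1 and 1 in saline mutants (-1.11, SE 0.245, limma adjusted p 0.0284), and kept its call in 10 of 17 alternatives. It was lost without the 3 libraries with Xist (-0.87, adjusted p 0.243) and without wild type replicate 1 (0.132) or 2 (0.0771) or saline mutant replicate 2 (0.126) or 3 (0.0904). The gene that rose was Kcnj14, an inward rectifier pore, at a mean of 1.0 in wild type and 3.0 in saline mutants (0.97, SE 0.231, limma adjusted p 0.0381). It held in 6 of 17 alternatives, with an adjusted p of 0.238 without the 3 libraries with Xist and of 0.095 to 0.18 without any 1 wild-type library or saline mutant replicate 2 or 3. Kcna4, the pore of the slow transient outward channel, was at 2, 2 and 2 in wild type, 5, 4 and 3 in saline mutants, with 2, 2 and 3 after treatment, with no overlap between the saline groups (0.72, SE 0.201, limma adjusted p 0.073). Kcna7 (-0.77, limma adjusted p 0.0834) was not called. Kcnc1, at 0, 0 and 1 in wild type and 2, 2 and 1 in saline mutants, passed the filter only through the saline mutants, so no test is given for it. At these levels a step of 1 unit is a large share of the value.

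**Figure D4:**
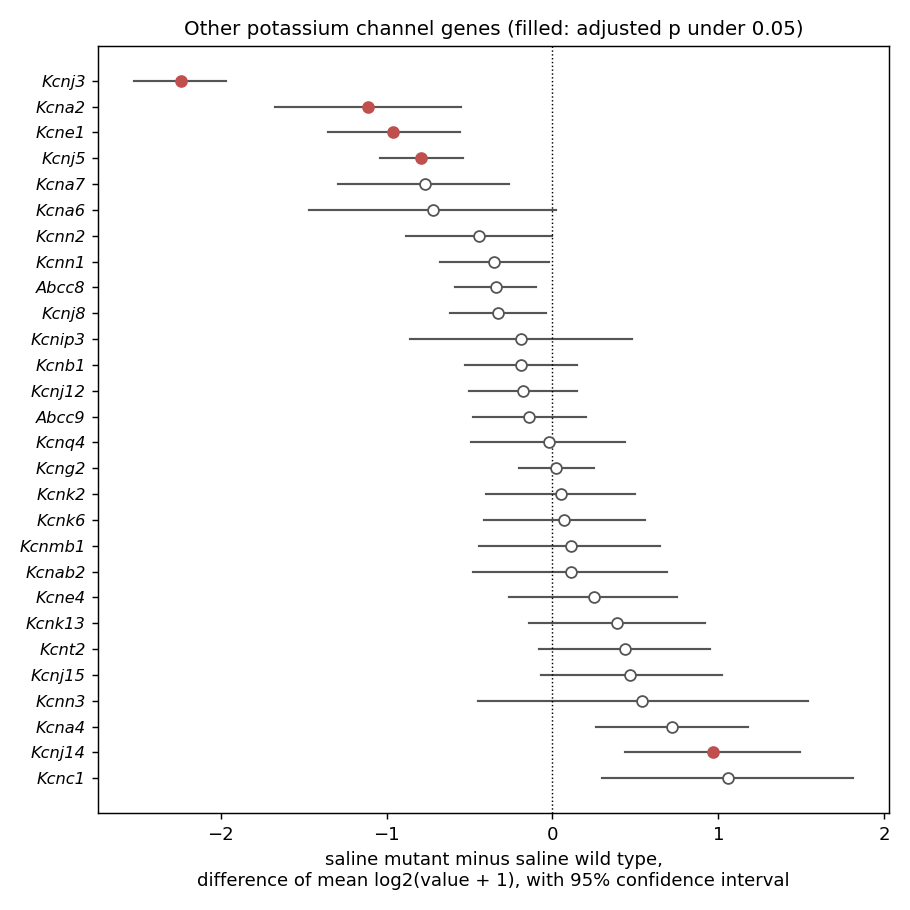
Difference between saline mutant and saline wild-type hearts on the log2(value + 1) scale (horizontal axis) for the 28 other potassium channel genes tested. Points are estimates with 95% confidence intervals, and filled points have a limma adjusted p under 0.05: Kcnj3, Kcna2, Kcne1 and Kcnj5 lie below 0 and Kcnj14 above. Kcnc1 is drawn but passed the filter only through the saline mutants, and Kcna6 only through wild type, so their intervals are not read as tests.

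In treated hearts Kcnj3 was at 23, 30 and 28, between the saline groups with no overlap. It differed from saline mutants by 1.34 (SE 0.150, limma adjusted p 0.0576) and was called in 8 of 18 alternatives, with adjusted p from 0.00618 to 0.274. No gene of the list was called in limma between the mutant groups, and at an unadjusted p under 0.05 there were 3 higher, Kcnj3 among them, and 1 lower. Of all 13636 genes tested there, 481 were higher and 649 lower at that limit. Against wild type, Kcnj3 was lower in treated hearts (-0.90, SE 0.125, limma adjusted p 0.0281), the only call among 31 genes; 8 of 18 alternatives kept it, and it was lost without the 3 libraries with Xist (-0.75, adjusted p 0.151) and without any 1 of the 6 libraries (0.0562 to 0.108). Kcnj5 was at 50, 57 and 66 in treated hearts, below wild type without overlap (-0.49, limma adjusted p 0.167).

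Genes for regulators known to act on cardiac channel genes were read from a list of 15, all of them tested. In saline mutants 1 of the 15 was called, a share near the 7.7% of all genes: Tbx5, a T-box factor of the conduction system and atria. It was at 20, 22 and 21 in wild type, 15, 13 and 15 in saline mutants, with 13, 21 and 19 after treatment, and fell by 0.52 (SE 0.123, limma adjusted p 0.0366). The call held in 8 of 18 alternatives and was lost without any 1 of the 6 libraries (0.0565 to 0.178) and without the 3 libraries with Xist (0.0922). Hand2, a factor of ventricular development, was higher in every saline mutant library (0.55, SE 0.147, limma adjusted p 0.0604). Irx3, an Iroquois factor of the conduction system, differed by -0.14 (adjusted p 0.558), and Irx5, a known repressor of Kcnd2 that was singled out after its values were seen, overlapped between the saline groups (0.68, adjusted p 0.150). In the other 2 comparisons none of the 15 was called, with 1 at an unadjusted p under 0.05 between the mutant groups and 2 between treated mutants and wild type. Of all genes tested, 481 were higher and 649 lower at that limit between the mutant groups. Between treated mutants and wild type 1049 were higher and 648 lower. The median of the list was 0.05 in saline mutants against wild type.

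The genes whose pattern over the 9 libraries was nearest to Kcnd2, out of 8786 genes of mean value at least 10, were Mylk4, Klhl33 and Wnk2. The root mean square difference in centred log2(value + 1) was 0.113, 0.142 and 0.143. Mylk4, a myosin light chain kinase family gene, averaged 233 in wild type, 52.7 in saline mutants and 118 in treated mutants. Klhl33, a Kelch-like gene, averaged 41.7, 8.67 and 23.3, and Wnk2, a kinase gene of the WNK family, 78.0, 17.3 and 44.7. These genes were picked for their likeness, so their falls are descriptions.

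Transcripts of other cell types and of remodelling moved in the same libraries. The summed level of 10 cardiomyocyte markers was 51820 to 58604 in wild type, 51921 to 62691 in saline mutants and 56059 to 57387 in treated mutants, so the markers of heart muscle were present in all 9 libraries. None of the 10 was called, but in saline mutants against wild type 3 were higher and 3 lower without overlap. Of all 13632 genes tested in that comparison, 1744 were higher and 1197 lower without overlap. The 3 lower markers, named after their values were seen, were Tnni3 at 70.7% ± 6.53 (limma adjusted p 0.0505), Pln at 74.9% ± 1.88 (0.0975) and Tnnt2 at 79.8% ± 5.44 (0.166) of wild type. The 3 higher markers, named in the same way, were Actn2 at 128% ± 9.69 (limma adjusted p 0.137), Actc1 at 125% ± 6.23 (0.244) and Tnnc1 at 119% ± 3.38 (0.191). The median difference over the 10 markers was 0.04. Of 7 atrial markers 4 were in the tables, with sums of 70 to 87, 387 to 1544 and 192 to 288. Nppa, the atrial natriuretic peptide gene that ventricles also express under load, made up most of these sums, averaging 49.3 ± 10.2, 901 ± 568 and 199 ± 51.6, while Myl4 was at 1 in each wild-type library and 3 to 5 in saline mutants. The slow myosin gene Myh7 averaged 83.3 ± 17.0, 1049 ± 303 and 194 ± 130. Of these 4 markers Nppa, Myl4 and Dkk3 were called higher and Tbx5 lower in saline mutants against wild type.

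Fibroblast marker sums were 1101 to 1516, 1628 to 2477 and 1247 to 1544, with 1 of 6 genes called higher in saline mutants. Endothelial sums were 1579 to 1944, 1322 to 1751 and 1303 to 1570, and smooth muscle and pericyte sums 1149 to 1406, 896 to 1147 and 954 to 1103 (1 gene called lower in saline mutants). Macrophage sums were 179 to 243, 199 to 370 and 162 to 251. Blood marker sums were 104 to 313, 69 to 85 and 140 to 158, and 2 of 5 genes were called lower in saline mutants. All 5 blood genes lay below wild type there without overlap, as did 8.78% of all genes. Calls in saline mutants against wild type were made for 4.56% of all genes in the higher and 3.14% in the lower direction. Neuron and Schwann cell markers were near 0 (5 to 10, 2 to 4 and 5 to 6). Skeletal muscle sums of 266 to 597, 4810 to 4989 and 843 to 1089 came almost wholly from Acta1, which heart muscle also expresses, with Tnnt3 and Myh4 at 0 or 1 in every library. Saline mutant replicate 3, with the lowest Kcnd2, Kcnip2, Kcnk3, Kcnh2, Kcnq1 and Kcnj11 values of its group, also had the highest Kcnj2 and Kcna5 values, the lowest cardiomyocyte sum and the highest atrial, fibroblast, endothelial, smooth muscle and pericyte, macrophage and blood sums of that group. The part of cell composition in the channel results was not tested.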

How the data were processed

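PolyA RNA-seq of 9 mouse heart libraries was read from 3 deposited tables, 1 for each pair of groups, and 3 shorter tables of the authors' selected genes. Per the submitters' processing notes, HISAT2, HTSeq, DESeq2 and mm10 were used; their versions and order are not given in the sources used here. The deposited value of each gene and library was treated as a score: it is a whole number, each library sums to nearly 1000000, and Ttn (2873 to 5583), a very long transcript, lies below Myh6 (14823 to 23965), as on a scale that divides by length. The depth of sequencing is unknown, so counting error is not given, and the precision is that of 3 libraries a group. The authors' mean signal, log2 fold change with its standard error and test statistic (a score) are deposited beside these values. The authors' deposited p-value columns hold the unadjusted normal p (named as adjusted) and that number divided by 55487.

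The main test was limma 3.58.1 (R 4.3.3), run for each pair of groups separately on log2(value + 1), a scale that understates the change of low genes, over genes with a mean of at least 1. Residual variances were floored at the rounding variance and the prior degrees of freedom came from genes with a mean of at least 30. Calls were made at an adjusted p under 0.05 (Benjamini-Hochberg, over all genes). On simulated data with genes changed by 1 log2, 77.2%, 68.1% and 73.9% were recovered in saline mutant against wild type (13632 genes), treated against saline mutant (13636) and treated mutant against wild type (13554), with 4.57%, 3.27% and 3.9% of calls false. Genes of the lowest mean values were not changed in the simulation, so the recovered shares do not cover genes as low as Kcna2 or Kcnj14. Ratios were compared by exact permutation with scipy 1.17.1.

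The members, the lists (other potassium channels, regulators and markers of 9 cell types), the tests and the variance step were chosen with earlier results of these data known, and the motifs after the sequences were seen. The genes named are the 9 members, Mybpc3, Nppa, Myh7, ratio partners, listed genes called in any comparison or among the smallest p (8 channels, 3 regulators), and the 3 genes nearest to the member of smallest p; Irx5, the cell type markers and Kcnv2 and Kcng1 were named after their values were seen. Positions are those of GENCODE on GRCm38. Listed genes that are not in the tables were not analysed here. The 18 alternatives per comparison changed the pseudocount, filter, scaling, variance step, libraries in the fit, block and sex term, or left out libraries.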

Additional observations from a re-analysis of the deposited data

How the results depend on the processing

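Among the refits of the 9 channel genes, 456 results kept direction and side of the threshold, 22 lost a call, 1 gained one and 7 turned direction. The cause of the changes below was not tested, except that leaving out libraries also leaves fewer samples. In saline mutant against wild type, the 9 genes had 2 calls instead of 5 without the rounding floor and without the 3 libraries with Xist, and 2 to 4 when 1 library was left out; Kcnd2 and Kcnip2 were called in every alternative. The other potassium channel genes had 3 calls instead of 5 with a filter at a mean of 10 (fewer genes tested), without the libraries with Xist and with the Y-linked level as a covariate, 8 with upper-quartile scaling, and 2 to 5 with 1 library left out. All genes gave 556 calls instead of 1050 without the libraries with Xist and 506 to 1029 with 1 library left out.

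In treated against saline mutants, none of the 9 genes was called in any alternative, while 1 other channel gene, Kcnj3, was called with a pseudocount of 0.1 or 5, a filter at 10, either scaling, the prior from all genes, all 9 libraries in 1 fit, or the block. All genes gave 7 calls instead of 2 with a pseudocount of 5, 6 with the filter at 10, 10 with either scaling, 32 without the rounding floor, 14 with the prior from all genes, 13 with all libraries in 1 fit, and 2 to 8 with 1 library left out. In treated mutants against wild type, 1 of the 9 genes, Kcnd2, was called with upper-quartile scaling. The other channel genes, with 1 call (Kcnj3), had 0 without the floor, without the libraries with Xist and with the Y-linked covariate, and 0 to 1 with 1 library left out, where the 1 was Kcne1. All genes gave 86 calls instead of 134 with no filter, 77 without the floor, 243 with the prior from all genes, 239 with all libraries in 1 fit, 9 without the libraries with Xist, 29 with the Y-linked covariate, and 1 to 133 with 1 library left out (1, 3 and 12 without wild type replicate 1, 2 or 3, and 24 and 22 without treated mutant replicate 1 or 2). Median-of-ratios and upper-quartile scaling moved the median of all genes by under 0.1 in every comparison.

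Groups share replicate numbers in the labels, but same-numbered libraries did not deviate together in every comparison (correlations from -0.37 to 0.566, 6 of 18 best with their own number). The correlations were -0.229, -0.104 and -0.37 in saline mutant against wild type, and 0.566, 0.15 and 0.0274 in treated mutant against wild type. The numbers were not taken as pairs, and the block was an alternative. With the replicate block, 4 of the 9 genes instead of 5 were called in saline mutant against wild type, Kcnh2 being lost, and none in the other comparisons; all genes gave 819, 30 and 35 calls, and Kcnj3 was called in treated against saline mutants (1 gene) and not in treated mutants against wild type (0).

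A pseudocount of 5 moved the log2 ratio difference of Kcnip2 to Kcnd2 from 1.37 to 0.91 (saline mutant against wild type) and from -0.80 to -0.46 (treated against saline mutant), and that of Kcnd2 to Kcnd3 from -2.00 to -1.57 and from 1.25 to 0.92. Without the libraries with Xist, the Kcnd2 to Kcnd3 difference of treated mutants from wild type was -0.54 instead of -0.74.

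Directions turned only for small, uncalled differences. Between the mutant groups these were Kcnj11 (-0.01 with the Y-linked covariate, -0.02 to 0.08 with 1 library left out), Kcna5 (-0.03 to 0.21 with 1 left out), Kcnh2 (-0.25 to 0.03), Kcnc1 (-0.13 with the covariate, -0.39 to 0.27 with 1 left out), Kcnj14 (-0.16 without the libraries with Xist, -0.18 to 0.43 with 1 left out) and Abcc9 (0.04 and 0.02 with median-of-ratios and upper-quartile scaling, 0.14 without the libraries with Xist, -0.13 to 0.17 with 1 left out). Between treated mutants and wild type they were Kcna5 (-0.22 to 0.03), Kcnq1 (-0.04 to 0.01), Kcna4 (0.0 to 0.21) and Abcc9 (-0.29 to 0.04), each with 1 library left out.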

Other observations

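Channel genes outside both lists were read after their values were seen. Of 11 further genes with a Kcn symbol in the tables, 4 passed the filter in saline mutant against wild type. Kcnv2, a silent subunit that joins other voltage-gated pores, was at 15, 9 and 15 in wild type, 5, 5 and 5 in saline mutants, with 8, 7 and 9 after treatment. It fell by 1.19 on the log2(value + 1) scale (SE 0.203, limma adjusted p 0.00874). Treated hearts lay above every saline mutant library, with a difference of 0.58 that did not pass the threshold (SE 0.157, limma adjusted p 0.370). Kcng1, another silent subunit, was listed at 0 in all 3 wild-type libraries, at 2, 2 and 3 in saline mutants and at 0, 0 and 3 after treatment. It passed the filter only through the saline mutants, so no test is given for it.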
